A study of Rattus norvegicus with 6 samples.

Results

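The 10 genes described here encode SNARE proteins and SNARE-docking factors that carry out granule release in mast cells: Snap23, Stx3, Stx4, Stx11, Vamp3, Vamp7, Vamp8, Stxbp2, Stxbp3 and Unc13d. They were taken by exact symbol from a table of 18286 genes, and all 10 had an entry. The table holds RPKM values, which are reads scaled by a gene's exon length and by the library total. The RNA came from RBL-2H3 cells, a basophilic leukemia line of the rat with surface IgE receptors that serves as a mast cell model. In the DHC group (n = 3 libraries) the cells had been treated with dihydrocoumarin, a lactone related to coumarin, at a dose and for a time that the labels do not give. The control group (n = 3 libraries) is labelled as having had no treatment. The labels give both groups 1 shared protocol, in which anti-DNP IgE (50 ng/ml) was present for 12 h and DNP-HSA (100 ng/ml), its antigen, for a further 4 h, and they name no unstimulated sample. The line is a single tumour line, and the labels file it under peripheral blood. Whether replicate libraries stem from different cultures is not stated, and p-values here measure only how far these libraries spread, which may be technical variation.

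Granule release is a membrane fusion reaction. A SNARE on the granule, a VAMP protein, zips together with a syntaxin and SNAP-23 on the plasma membrane or on a neighbouring granule, which pulls both membranes into contact. Sec1/Munc18 proteins clasp the syntaxins and guide the assembly, and Munc13-4 tethers granules that carry Rab27 before they fuse. In mast cells several granules can also fuse with each other before release, and SNAP-23 is known to relocate to granule membranes in that process. In humans, loss of syntaxin 11, Munc18-2 or Munc13-4 causes familial hemophagocytic lymphohistiocytosis, in which cytotoxic lymphocytes fail to release their granules.

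Of the 10 genes, 5 passed the test, 3 lower and 2 higher in DHC cells. Snap23 and Stx11 were 1.66-fold and 1.76-fold lower in DHC cells than in control cells. Smaller differences passed for Stxbp2, which was lower, and for Stxbp3 and Vamp7, which were higher. Stx3, Stx4, Vamp3, Vamp8 and Unc13d did not pass. Without DHC library 2, control library 1 or control library 3, only 3 of the 10 passed, Snap23, Stx11 and Stxbp3. The test was limma on log2(RPKM + 1) over 10667 genes whose mean reached 1 RPKM, a filter that all 10 passed, with Benjamini-Hochberg adjustment and a threshold of 0.05 on the adjusted p. Over all tested genes 34.5% passed, 18.4% higher and 16.1% lower, and the 5 of 10 is read against that background. That background also shrank when a library was left out. Of all genes 3685 passed with all 6 libraries, 2472 without DHC library 2, 3267 without control library 1 and 2887 without control library 3. The median log2 difference of the 10 genes was -0.02, against 0.05 over all tested genes. Values of DHC and control libraries did not overlap for 5 of the 10 genes, against 49.7% of all tested genes (28.1% higher and 21.6% lower in DHC cells).

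The libraries held between 29190987 and 31299551 counted reads in the DHC group and between 29084976 and 34170922 in the control group. Of the mast cell and basophil markers looked at, 8 of 10 in the table reached 1 RPKM, and Tpsb2 and Cma1 did not. The summed level of this list was lower in DHC cells, 705 to 731 RPKM, than in control cells, 1020 to 1051 RPKM. Most of that gap lay in Gata2, a transcription factor of mast cells, with 67.8 to 71.4 RPKM in DHC cells and 333 to 353 RPKM in control cells, and Kit, Il1rl1 and Hdc also passed as lower in DHC cells. The list did not move as a whole: Ms4a2, the beta chain of the IgE receptor, passed as higher, with 359 to 379 RPKM in DHC cells and 305 to 337 RPKM in control cells (adjusted p = 0.0166), and Fcer1a, Fcer1g and Cpa3 did not pass. Of the B cell, red cell and endothelial markers looked at, 2 of 3, 1 of 3 and 1 of 2 had an entry. Those with an entry stayed under 1 RPKM in every library. Of the epithelial markers, 0 of 2 had an entry. Among the T cell and fibroblast markers, Cd3e reached 40.5 to 43.7 RPKM in DHC cells and 31.7 to 37.4 RPKM in control cells, while Col3a1 reached 20.6 to 23.4 RPKM in DHC cells and 22.6 to 24.4 RPKM in control cells. The other markers of both lists stayed under 1 RPKM. The macrophage marker Cd68 and the neutrophil marker Ngp, the only neutrophil marker of 3 with an entry, reached at most 1.79 and 1.22 RPKM in any library. Whether these levels have a part in the differences below was not tested. In bulk RNA, fewer cells of a type and less RNA per cell cannot be told apart.

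The 250 bases before the RefSeq transcription start are shown for Snap23, Stx11, Stxbp2 and Stxbp3, because these 4 genes passed the test and between them differ in both directions. They are RefSeq sequences on GRCr8, a different build from that of the expression table. The windows are chr3:127967636-127967885 on the plus strand for Snap23, chr1:9140220-9140469 on the minus strand for Stx11, chr12:6487076-6487325 on the plus strand for Stxbp2 and chr2:199173824-199174073 on the minus strand for Stxbp3. Each reads 5′ to 3′ toward the start, and capitals mark matches to the motifs named after the sequences.
Snap23: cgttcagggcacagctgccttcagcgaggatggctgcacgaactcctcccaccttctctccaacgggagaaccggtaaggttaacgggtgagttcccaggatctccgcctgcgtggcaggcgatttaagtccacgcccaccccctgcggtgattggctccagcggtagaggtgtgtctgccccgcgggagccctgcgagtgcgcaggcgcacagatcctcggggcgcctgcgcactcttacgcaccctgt
Stx11: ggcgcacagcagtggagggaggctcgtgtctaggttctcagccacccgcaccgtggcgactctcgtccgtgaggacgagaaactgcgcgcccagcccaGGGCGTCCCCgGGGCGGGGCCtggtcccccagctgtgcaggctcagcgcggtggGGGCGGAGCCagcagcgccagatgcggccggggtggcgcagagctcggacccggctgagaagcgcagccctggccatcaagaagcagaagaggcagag
Stxbp2: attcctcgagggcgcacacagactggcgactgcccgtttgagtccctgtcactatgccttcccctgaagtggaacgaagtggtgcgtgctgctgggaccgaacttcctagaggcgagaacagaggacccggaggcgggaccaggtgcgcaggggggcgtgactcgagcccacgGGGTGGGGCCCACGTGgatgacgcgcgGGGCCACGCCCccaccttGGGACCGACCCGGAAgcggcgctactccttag
Stxbp3: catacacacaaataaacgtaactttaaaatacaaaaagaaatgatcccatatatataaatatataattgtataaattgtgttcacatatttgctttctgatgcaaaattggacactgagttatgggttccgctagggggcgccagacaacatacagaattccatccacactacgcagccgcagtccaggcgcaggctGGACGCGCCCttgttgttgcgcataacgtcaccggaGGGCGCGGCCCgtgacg

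Windows were found for 8 of the 10 genes, Vamp3 and Vamp7 being the others. Both strands were searched for the GATA core AGATAA and for the AP-1 motif TGANTCA, for the NF-kB motif (GGG, any 5 bases, CC) and for the ETS core CCGGAA. The E-box CACGTG and the cyclic AMP response element TGACGTCA were searched in the same way. The Snap23 window held no match, and nor did that of Vamp8. The Stx11 window held the NF-kB motif at 3 positions, beginning 152, 141 and 98 bases before the start. The Stxbp2 window held 8 matches, several of them overlapping, among them an E-box 67 bases and an ETS core 23 bases before the start. The Stxbp3 window held 3 matches, all to the NF-kB motif, of which the pair nearest the start overlap. The NF-kB motif is loose and occurs in 42.3% of the 33469 RefSeq windows of this length, whereas the ETS core occurs in 12.6% and the E-box in 5.59%. No window of the 8 genes held a match to the GATA, AP-1 or cyclic AMP motif, which occur in 10.3%, 6.34% and 1.59% of all windows. The windows differ in base composition, with 64.8% G and C for Snap23, 71.6% for Stx11, 67.2% for Stxbp2 and 45.2% for Stxbp3, against a median of 51.2% over all windows.

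**Figure D1:**
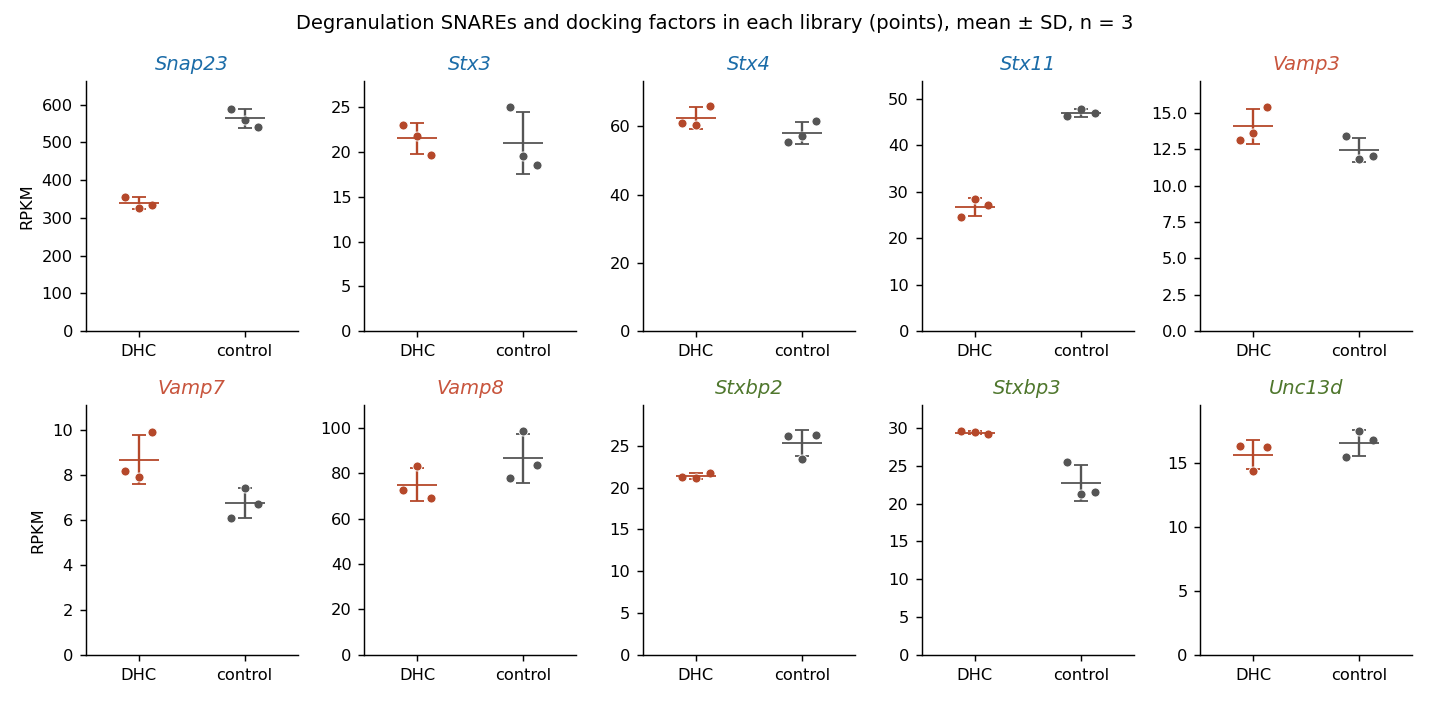
RPKM of each of the 10 genes in every library, DHC libraries to the left of control libraries, with points for libraries and lines for the group mean and SD. The DHC and control points of Snap23 (327 to 356 against 541 to 589 RPKM) and Stx11 (24.6 to 28.3 against 46.2 to 47.7 RPKM) lie far apart, whereas those of Stx3, Stx4, Vamp3, Vamp8 and Unc13d overlap.

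Snap23 encodes SNAP-23, the widely expressed relative of neuronal SNAP-25, which contributes a pair of helices to each SNARE bundle on the plasma membrane. It lies at chr3:112346627-112361216 of Rnor_6.0 on the plus strand, with 13 exon blocks that cover 633 bases. Snap23 stood at 356, 327 and 334 RPKM in the DHC libraries, against 589, 559 and 541 RPKM in the control libraries. The highest DHC library thus lay well below the lowest control library. The means were 339.3 ± 15.1 RPKM in DHC cells and 563.2 ± 24.0 RPKM in control cells (SD, n = 3 each), so the level fell by 39.8% in DHC cells. In limma the log2 difference was -0.73 ± 0.05 (SE), with a 95% interval of -0.85 to -0.61 and an adjusted p of 6.13e-05. Behind each value stood 6177 to 11709 reads, for which counting error was 1.25% in DHC and 0.948% in control libraries, less than the replicate coefficients of variation of 4.45% and 4.26%. Of the 10667 tested genes, 428 had a lower log2 difference than Snap23.

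Stx11 encodes syntaxin 11, a syntaxin without a transmembrane segment that is found in immune cells. It lies at chr1:7039162-7064870 on the minus strand, in 2 exon blocks of 1951 bases together. Stx11 stood at 24.6, 28.3 and 27.2 RPKM in the DHC libraries, against 46.2, 47.7 and 46.9 RPKM in the control libraries. All 3 DHC libraries lay below all 3 control libraries. The means were 26.7 ± 1.89 RPKM in DHC cells and 46.9 ± 0.779 RPKM in control cells (SD, n = 3 each), and the level fell by 43.1% in DHC cells. The fitted log2 difference was -0.79 ± 0.06 (SE), with a 95% interval of -0.93 to -0.65 and an adjusted p of 9.24e-05. Among the tested genes, 353 had a lower log2 difference.

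The other syntaxins of the set did not pass the test. Stx3 encodes syntaxin 3, a plasma membrane and granule syntaxin that pairs with Munc18-2. The gene lies at chr1:228149867-228194977 on the minus strand (11 exon blocks, 3181 bases). Its values were 23.0, 21.8 and 19.7 RPKM in the DHC libraries and 25.0, 19.5 and 18.6 RPKM in the control libraries, and the groups overlapped. The test gave a log2 difference of 0.04 ± 0.11 (SE), with a 95% interval of -0.22 to 0.30 and an adjusted p of 0.819, and its sign changed with the scaling (-0.025 with trimmed mean and -0.016 with median-of-ratios scaling). Stx4 encodes syntaxin 4, the partner of Munc18-3 and a plasma membrane syntaxin with a known part in granule release of RBL cells. It lies at chr1:199287710-199294979 on the plus strand (11 exon blocks, 1159 bases). Stx4 stood at 60.9, 60.3 and 66.0 RPKM in the DHC libraries, against 55.5, 57.0 and 61.5 RPKM in the control libraries. The DHC range reached into the control range. The log2 difference was 0.10 ± 0.06 (SE), with a 95% interval of -0.03 to 0.24 and an adjusted p of 0.208.

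**Figure D2:**
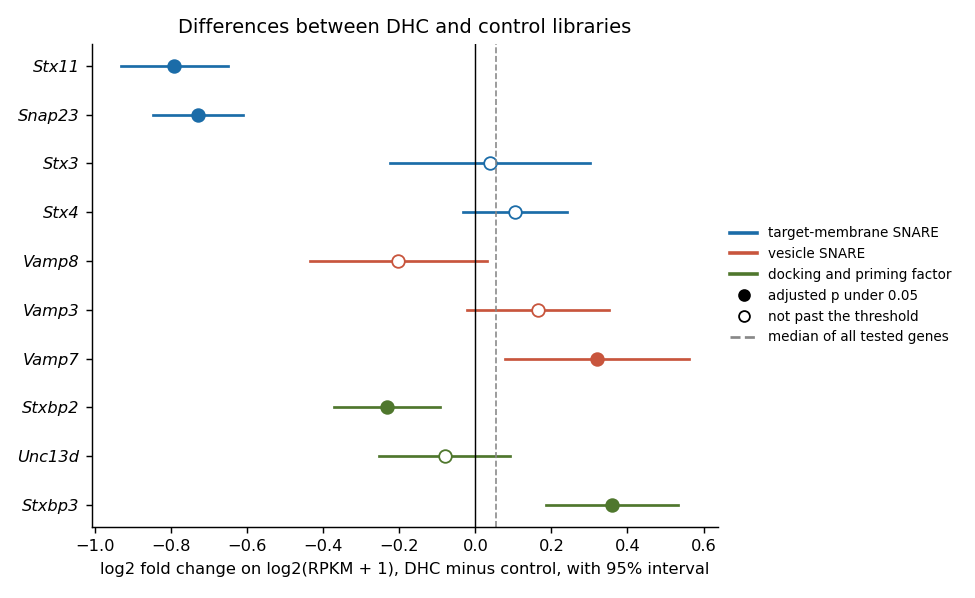
Log2 difference (DHC minus control, on the log2(RPKM + 1) scale) of each of the 10 genes, with bars for the 95% interval, filled points for genes past the threshold and a dashed line at the median of all tested genes. The intervals of Snap23 (-0.85 to -0.61) and Stx11 (-0.93 to -0.65) lie below those of the 8 other genes.

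Among the vesicle SNAREs, Vamp8 had the highest RPKM, a level per exon length. It encodes VAMP-8 (endobrevin), a granule SNARE whose loss impairs mast cell degranulation in mice, and lies at chr4:100250301-100252755 on the minus strand (2 exon blocks, 300 bases). Its reads numbered 606 to 860 per library, close to the 594 to 776 of Vamp3, whose exon blocks cover 1721 bases. Vamp8 stood at 72.5, 83.2 and 69.2 RPKM in the DHC libraries, against 77.7, 98.6 and 83.5 RPKM in the control libraries. The second DHC library lay within the control range. In limma the log2 difference was -0.20 ± 0.10 (SE), with a 95% interval of -0.44 to 0.03 and an adjusted p of 0.154.

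Vamp7 encodes VAMP-7, a SNARE of late endosomes and secretory lysosomes, and had the lowest level of the 10 genes. It lies at chr12:18996591-19030381 on the plus strand (8 exon blocks, 989 bases). Vamp7 stood at 8.21, 7.95 and 9.94 RPKM in the DHC libraries, against 6.09, 7.44 and 6.75 RPKM in the control libraries, or 184 to 287 reads. The groups did not overlap, but the lowest DHC and the highest control value were close. The means were 8.70 ± 1.08 RPKM in DHC cells and 6.76 ± 0.675 RPKM in control cells (SD, n = 3 each), 1.29-fold higher in DHC cells. The fitted log2 difference was 0.32 ± 0.10 (SE), with a 95% interval of 0.08 to 0.56 and an adjusted p of 0.0480. This call was lost when any 1 of the 6 libraries was left out (adjusted p 0.0504 to 0.134), with trimmed mean or median-of-ratios scaling (0.101 and 0.0903), without the filter on low values (0.105) and with limma-voom on recovered reads (0.0631).

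Vamp3 encodes VAMP-3 (cellubrevin), a SNARE of recycling endosomes. It lies at chr5:168126157-168136666 on the minus strand (5 exon blocks, 1721 bases). Vamp3 stood at 13.2, 13.6 and 15.4 RPKM in the DHC libraries, against 13.4, 11.9 and 12.1 RPKM in the control libraries. The first DHC library lay below the first control library, so the groups overlapped. The test gave a log2 difference of 0.16 ± 0.08 (SE), with a 95% interval of -0.02 to 0.35 and an adjusted p of 0.148.

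The docking factors include a pair of Munc18 proteins that differed from the controls in opposite directions. Stxbp2 encodes Munc18-2, which binds syntaxins 3 and 11, and lies at chr12:2180150-2191175 on the plus strand (19 exon blocks, 2118 bases). Stxbp2 stood at 21.2, 21.1 and 21.8 RPKM in the DHC libraries, against 26.2, 23.5 and 26.3 RPKM in the control libraries. All DHC values were below all control values. The coefficient of variation of the DHC values, 1.65%, was smaller than their counting error of 2.71%. The means were 21.4 ± 0.354 RPKM in DHC cells and 25.3 ± 1.59 RPKM in control cells (SD, n = 3 each), and the level fell by 15.6% in DHC cells. The log2 difference was -0.23 ± 0.06 (SE), with a 95% interval of -0.37 to -0.09 and an adjusted p of 0.0212. Leaving out DHC library 2, control library 1 or control library 3 raised the adjusted p to 0.0737, 0.0550 and 0.0703, and the call was lost.

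Stxbp3 encodes Munc18-3 (Munc18c), which binds syntaxin 4, and lies at chr2:211595659-211638788 on the minus strand (19 exon blocks, 2524 bases). Stxbp3 stood at 29.6, 29.4 and 29.1 RPKM in the DHC libraries, against 25.5, 21.3 and 21.5 RPKM in the control libraries. The DHC values were nearly equal and all lay above the control values, of which the first was the highest. Their coefficient of variation, 0.728%, was smaller than counting error alone would give (2.12%). The means were 29.4 ± 0.214 RPKM in DHC cells and 22.8 ± 2.37 RPKM in control cells (SD, n = 3 each), 29.1% higher in DHC cells. In limma the log2 difference was 0.36 ± 0.07 (SE), with a 95% interval of 0.19 to 0.53 and an adjusted p of 0.00866.

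Unc13d encodes Munc13-4, the Rab27a effector that docks granules, and lies at chr10:104613928-104628676 on the minus strand (32 exon blocks, 4029 bases). Unc13d stood at 16.4, 14.4 and 16.2 RPKM in the DHC libraries, against 15.5, 17.5 and 16.9 RPKM in the control libraries, and the groups overlapped. The fitted log2 difference was -0.08 ± 0.07 (SE), with a 95% interval of -0.25 to 0.09 and an adjusted p of 0.428.

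**Figure D3:**
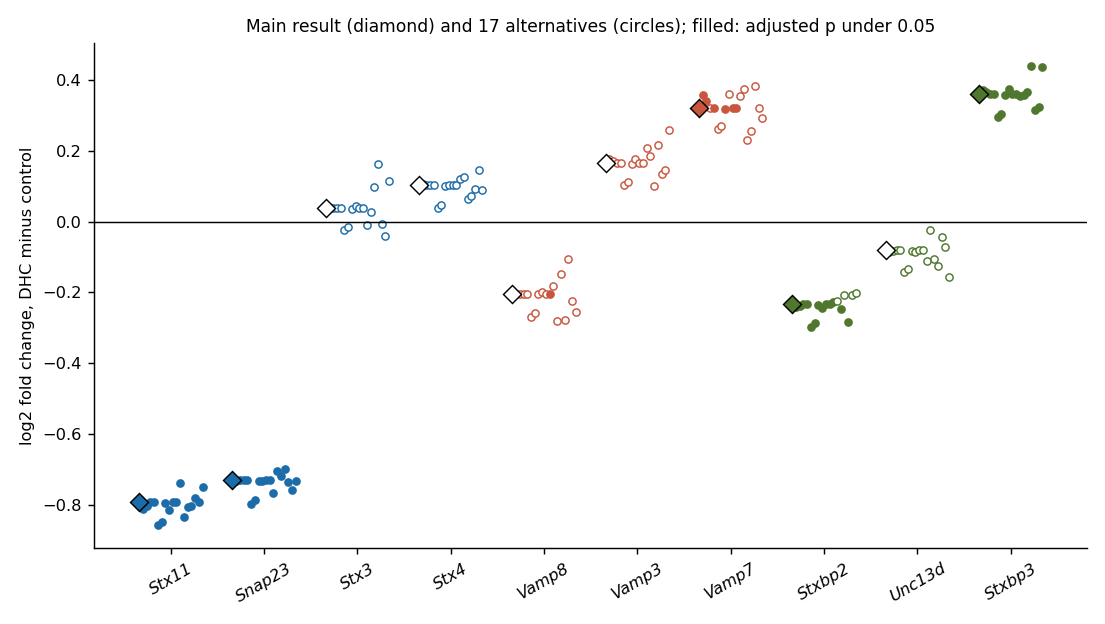
Log2 difference (DHC minus control) of each of the 10 genes as reported (diamond) and under 17 alternative settings (circles), filled where the adjusted p was under 0.05. Points of Snap23 (-0.80 to -0.70), Stx11 (-0.86 to -0.74) and Stxbp3 (0.30 to 0.44) stay on 1 side of 0 and passed in all 17, those of Vamp7 passed in 6 and those of Stxbp2 in 13.

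No exon of the 10 genes shared a base with an exon of another gene that the table places on 1 chromosome. The RefSeq table for GRCr8 lists a pseudogene of Snap23 and another of Stxbp3. How reads matching both a gene and its pseudogene were counted is unknown here, so both levels carry that uncertainty.

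The order of the 10 levels, per length, was the same at the top and the bottom in both groups. Snap23 led, at the 98.2 percentile of mean RPKM among tested genes, then came Vamp8 and Stx4, and Unc13d, Vamp3 and Vamp7 closed the order. The middle differed. In DHC cells Stxbp3 (29.4 RPKM) came before Stx11 (26.7 RPKM), Stx3 (21.5 RPKM) and Stxbp2 (21.4 RPKM). In control cells Stx11 (46.9 RPKM) came before Stxbp2 (25.3 RPKM), Stxbp3 (22.8 RPKM) and Stx3 (21.0 RPKM). Neighbours whose libraries overlapped were Stx3 with Stxbp2 and Unc13d with Vamp3 in DHC cells, and Stxbp2 with Stxbp3 and Stxbp3 with Stx3 in control cells. The lowest gene, Vamp7, lay at the 40.3 percentile of tested genes, whose median was 11.2 RPKM.

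Summed over the genes of a role, the target-membrane SNAREs (Snap23, Stx3, Stx4 and Stx11) reached 449.9 ± 13.7 RPKM in DHC cells and 689.1 ± 24.1 RPKM in control cells (SD, n = 3 each), 1.53-fold lower in DHC cells. Without Snap23 the 3 syntaxins reached 110.6 ± 2.18 RPKM in DHC cells and 126.0 ± 1.49 RPKM in control cells. Of these syntaxins only Stx11 had a lower mean in DHC cells, and the means of Stx3 and Stx4 were slightly higher. For both sums the groups did not overlap, and an exact permutation test (two-sided) gave p = 0.1, which is as small as 3 against 3 libraries allow. The vesicle SNAREs reached 97.7 ± 6.10 RPKM in DHC cells and 105.8 ± 10.8 RPKM in control cells (exact permutation p = 0.3, n = 3 each). The docking factors reached 66.4 ± 1.28 RPKM in DHC cells and 64.7 ± 2.47 RPKM in control cells (exact permutation p = 0.4, n = 3 each). In the vesicle and docking sums the libraries of the groups overlapped. After Benjamini-Hochberg adjustment over the role sums, the permutation p was 0.3 for the target-membrane SNAREs and 0.4 for the other roles.

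Within these sums the make-up differed. Sums and shares weigh the genes by RPKM and so depend on the exon lengths used. Snap23 held 75.4 ± 1.09% of target-membrane SNARE RPKM in DHC cells and 81.7 ± 0.658% in control cells, and Stx4 held 13.9 ± 0.841% in DHC cells and 8.43 ± 0.730% in control cells. Among the 3 syntaxins alone, Stx4 held 56.4 ± 1.97% in DHC cells and 46.0 ± 2.32% in control cells, while Stx11 held 24.2 ± 1.47% in DHC cells and 37.3 ± 1.02% in control cells. Stx4 had the largest of these 3 shares in both groups, and its own level did not pass the test. In the sum with Snap23, the share of Stx11 was 5.95 ± 0.595% in DHC cells and 6.82 ± 0.315% in control cells, and the groups overlapped. Stxbp3 was the largest part of docking factor RPKM in DHC cells, with 44.2 ± 0.975% against 35.1 ± 2.46% in control cells, and Stxbp2 held 32.2 ± 0.514% in DHC cells and 39.1 ± 1.46% in control cells. Vamp8 held 76.6 ± 3.16% of vesicle SNARE RPKM in DHC cells and 81.7 ± 1.84% in control cells.

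**Figure D4:**
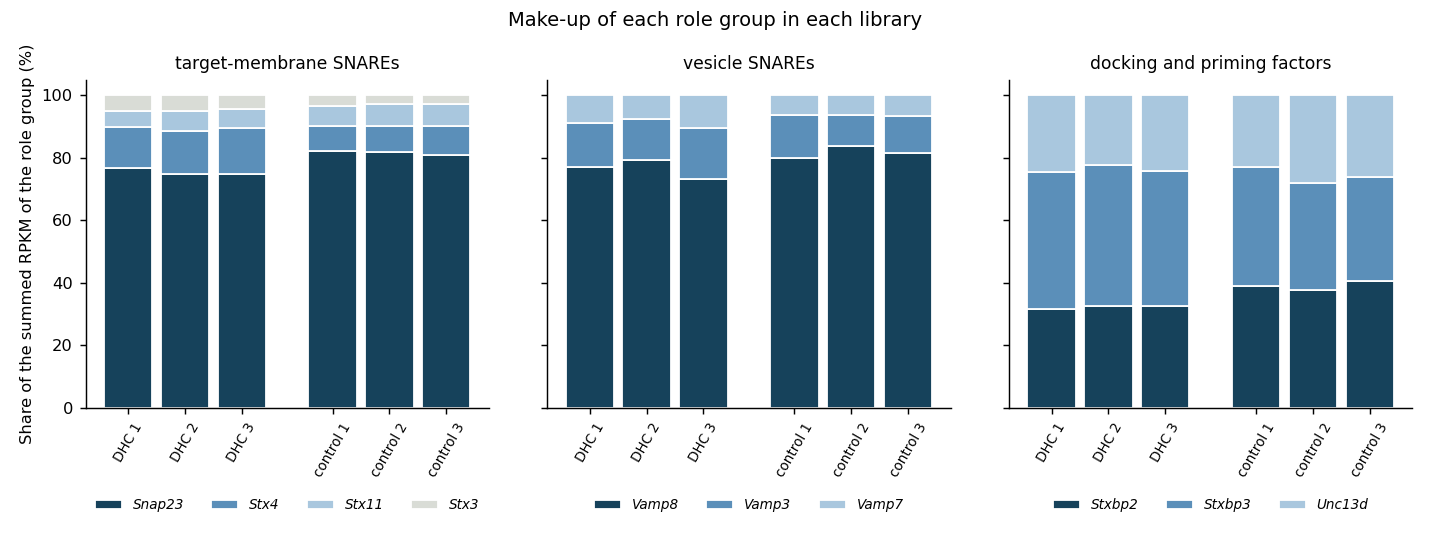
Share in percent of each gene in the summed RPKM of its role, in each library, DHC libraries to the left of control libraries. Snap23 makes up most of the target-membrane SNARE RPKM in every library, with means of 75.4% in DHC and 81.7% in control cells, and Stxbp3 is the largest docking share in the DHC libraries (44.2% on average).

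Ratios between genes of 1 library do not depend on how libraries are scaled to each other. The RPKM ratio of Snap23 to Stxbp3 was 11.5 ± 0.467 in DHC cells and 24.9 ± 1.62 in control cells (SD, n = 3 each), and that of Snap23 to Stx4 was 5.45 ± 0.396 in DHC cells and 9.74 ± 0.909 in control cells. The ratio of Stx11 to Stx3 was 1.25 ± 0.162 in DHC cells and 2.27 ± 0.370 in control cells. The ratio of Stxbp2 to Stxbp3 was 0.728 ± 0.0170 in DHC cells and 1.12 ± 0.0971 in control cells, so that Munc18-3 RNA exceeded Munc18-2 RNA per length in all DHC libraries. The ratio of Vamp8 to Vamp7 was 8.75 ± 1.75 in DHC cells and 12.8 ± 0.437 in control cells. In these 5 ratios the groups did not overlap, and each had p = 0.1 by the exact permutation test, as small as it can be, or 0.16 after adjustment over the 8 ratios computed. The groups overlapped for Stx3 to Stx4 (exact permutation p = 0.9), Vamp8 to Vamp3 (exact permutation p = 0.2) and Unc13d to Stxbp2 (exact permutation p = 0.2).

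Around these 10 genes, 138 further genes of exocytosis and membrane traffic were grouped by role. Of these, 111 were in the table and 86 were tested. In DHC cells 23 rose and 14 fell, 43.0% of those tested, against 34.5% of all tested genes (18.4% higher and 16.1% lower), and their median log2 difference was 0.12. The number higher depended on single libraries. Without DHC library 2, 14 were higher and 13 lower. Without control library 2, and likewise without control library 3, 15 were higher and 13 lower. Calls over all tested genes fell as well, from 3685 (1968 higher and 1717 lower) to 2472 (1195 higher and 1277 lower) without DHC library 2. They numbered 2683 without control library 2 and 2887 without control library 3. With trimmed mean scaling 17 of the genes grouped by role rose and 18 fell. Over all tested genes that scaling moved the share of calls that were higher from 53.4% to 37.8%. For the 10 genes themselves that scaling left 1 higher and 3 lower. It shifted the median of all tested genes by less than 0.1 on the log2 scale.

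Of the other plasma-membrane and exocytic SNAREs, 6 were tested, of which 3 rose and 1 fell (median 0.37). The share called was 66.7%, against 34.5% of all tested genes. Snap29, which encodes the broadly distributed relative of SNAP-23, was at 29.3, 29.1 and 28.8 RPKM in the DHC libraries and 17.8, 19.4 and 17.8 RPKM in the control libraries, 1.59-fold higher in DHC cells (adjusted p = 0.000157). Vamp2, which encodes the synaptobrevin of neuronal and endocrine granules, was at 36.8, 32.1 and 31.9 RPKM in the DHC libraries and 21.6, 21.7 and 21.8 RPKM in the control libraries, 1.55-fold higher in DHC cells (adjusted p = 0.000453). Both moved in the direction opposite to Snap23. Stx2, another plasma membrane syntaxin, averaged 9.81 ± 0.066 RPKM in DHC cells and 14.1 ± 0.578 RPKM in control cells (SD, n = 3 each), 1.44-fold lower in DHC cells (adjusted p = 0.000894).

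Of the other Sec1/Munc18 and syntaxin-binding proteins, 10 were tested, with 2 higher and 2 lower (median 0.12). That is 40% called, against 34.5% of all tested genes. Stxbp5, which encodes tomosyn, an inhibitor that occupies syntaxin-SNAP complexes, averaged 29.3 ± 1.54 RPKM in DHC cells and 40.7 ± 0.717 RPKM in control cells (SD, n = 3 each), 1.39-fold lower in DHC cells (adjusted p = 0.00066). Stxbp4, which encodes the syntaxin 4 binding protein synip, averaged 2.84 ± 0.240 RPKM in DHC cells and 1.21 ± 0.126 RPKM in control cells, 2.36-fold higher in DHC cells (adjusted p = 0.00128). Of the other Munc13-like and CAPS genes 2 were tested and 0 passed with limma, 0 also at an unadjusted p of 0.05 and 0 with limma-voom. Unc13a, which encodes Munc13-1, averaged 1.51 ± 0.167 RPKM in DHC cells and 1.29 ± 0.0289 RPKM in control cells (adjusted p = 0.407).

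The Rab27 and Rab3 system, which links granules to Munc13-4 and to the actin cortex, had 6 tested genes, of which 4 fell, against 16.1% of all tested genes, with a median log2 difference of -0.58, and the other two, Rab37 and Rab3d, did not pass. Sytl3, which encodes the Rab27 effector Slp3, was at 69.3, 64.4 and 68.1 RPKM in the DHC libraries and 116, 118 and 122 RPKM in the control libraries, 1.77-fold lower in DHC cells (adjusted p = 2.63e-05). Rab27a was at 87.7, 79.5 and 77.7 RPKM in the DHC libraries and 139, 122 and 126 RPKM in the control libraries, 1.58-fold lower in DHC cells (adjusted p = 0.00034). Sytl2, which encodes the effector Slp2, averaged 4.61 ± 0.803 RPKM in DHC cells and 10.1 ± 1.11 RPKM in control cells (SD, n = 3 each), 2.19-fold lower in DHC cells (adjusted p = 0.000857). Rab27b, the second Rab27 of mast cell granules, was 1.44-fold lower in DHC cells (adjusted p = 0.0018). Both Rab27 genes were lower in DHC cells while their effector Unc13d did not pass. Of the calcium sensors and complexins, 3 were tested and 1 of them, Cplx2, was higher in DHC cells, against 18.4% of all tested genes. Cplx2 averaged 6.62 ± 0.334 RPKM in DHC cells and 4.26 ± 0.877 RPKM in control cells (adjusted p = 0.0119). Complexin 2 acts on SNARE bundles in mast cells and neurons.

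Of the 19 tested SNAREs of endosomes, lysosomes and Golgi, 5 rose and 1 fell in DHC cells (median 0.19). This is 31.6% called, near the 34.5% of all tested genes. The count was 3 when DHC library 2 or control library 1 was left out. With trimmed mean scaling 2 were higher and 2 lower. Stx17, a syntaxin of autophagosome fusion, averaged 7.53 ± 0.579 RPKM in DHC cells and 4.01 ± 0.663 RPKM in control cells (SD, n = 3 each; adjusted p = 0.00178). Sec22b, a SNARE of traffic between endoplasmic reticulum and Golgi, was 1.27-fold higher in DHC cells (adjusted p = 0.00814), and Bet1l, a Golgi SNARE, was 1.28-fold lower (adjusted p = 0.00358). Of the 4 genes that take spent SNARE bundles apart, 1 passed, or 25%, against 34.5% of all tested genes. It was Napb, which encodes beta-SNAP, with 3.20 ± 0.409 RPKM in DHC cells and 1.99 ± 0.419 RPKM in control cells (adjusted p = 0.0248). That call was lost without DHC library 1, DHC library 2, control library 2 or control library 3, with an adjusted p of up to 0.0893.

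The exocyst, a tethering complex for secretory vesicles, had 9 tested subunits, of which 3 rose and 1 fell (median 0.10), or 2 and 2 with trimmed mean scaling. Without that scaling 44.4% were called, against 34.5% of all tested genes. Exoc8 averaged 13.1 ± 0.346 RPKM in DHC cells and 20.9 ± 0.566 RPKM in control cells (SD, n = 3 each), 1.60-fold lower in DHC cells (adjusted p = 0.000158). Exoc2 was 1.64-fold higher (adjusted p = 0.00491) and Exoc4 1.23-fold higher (adjusted p = 0.00691) in DHC cells, so subunits differed in both directions. Of 21 tested genes that build lysosome-related organelles, 7 rose and 3 fell (median 0.14), 6 in all when control library 3 was left out. With all libraries 47.6% of them were called, against 34.5% of all tested genes. Vps18, a subunit of the lysosomal HOPS tether, averaged 1.09 ± 0.149 RPKM in DHC cells and 2.60 ± 0.249 RPKM in control cells (adjusted p = 0.00186). Bloc1s4 was 1.72-fold lower (adjusted p = 0.00121), and Ap3b1, which encodes a subunit of the AP-3 adaptor, was 1.25-fold higher (adjusted p = 0.0033), in DHC cells.

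Of the secretory carrier proteins and kinases that act on SNAP-23, 6 were tested, with 1 higher and 2 lower (median 0.07). The called share was 50%, against 34.5% of all tested genes. Scamp4 averaged 2.83 ± 0.485 RPKM in DHC cells and 5.93 ± 0.63 RPKM in control cells (SD, n = 3 each; adjusted p = 0.00152). Prkca and Prkcb, the alpha and beta protein kinases C of IgE receptor signalling, differed in opposite directions. Prkca was 1.24-fold lower in DHC cells (adjusted p = 0.0055), and Prkcb was 1.20-fold higher (adjusted p = 0.0204), a call that was lost without DHC library 1, DHC library 2, control library 2 or control library 3 (adjusted p up to 0.0654). Ikbkb, the other kinase gene of the list, averaged 13.5 ± 0.589 RPKM in DHC cells and 12.8 ± 1.22 RPKM in control cells and did not pass (adjusted p = 0.501).

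**Figure D5:**
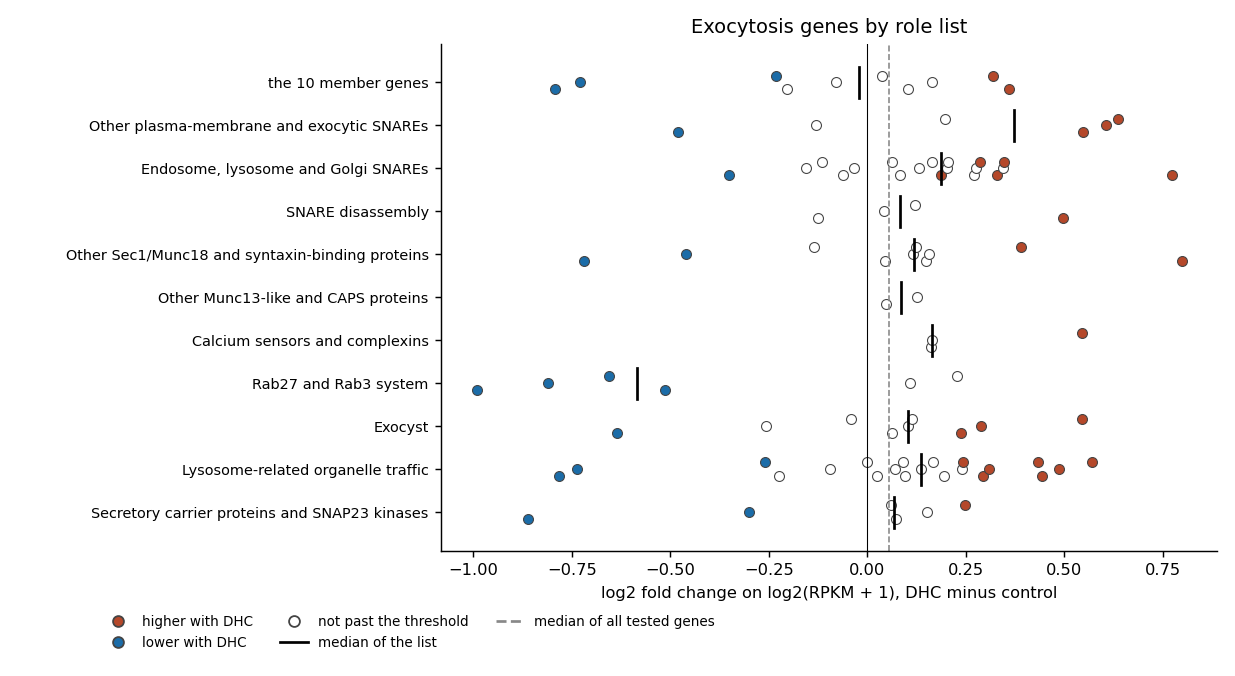
Log2 difference (DHC minus control, on the log2(RPKM + 1) scale) of each tested gene in the 10 role lists and, in the top line, of the 10 genes of the set, with points coloured by call, black bars at list medians and a dashed line at the median of all tested genes (0.05). The Rab27 and Rab3 list has its median at -0.58, and the other plasma-membrane SNAREs have theirs at 0.37.

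Genes whose profile over the 6 libraries was most like that of Snap23 were Rab32, Slc4a7 and Ubald2, each with a Pearson r of at least 0.9994 on log2(RPKM + 1) among 5640 genes averaging 10 RPKM or more. Here and for Stxbp3, genes whose symbol is only an identifier were passed over, so such a gene could rank higher. Rab32 averaged 22.1 ± 1.06 RPKM in DHC cells and 35.9 ± 1.27 RPKM in control cells (SD, n = 3 each). The genes most like Stxbp3 were Zfp106, Ssr1 and Rfc1 (r = 0.995, 0.994 and 0.992). Stxbp3 was taken because its log2 difference over all 6 libraries (0.36) was the highest of the 10, close to that of Vamp7 (0.32), which was the higher of the pair without DHC library 2 (0.38 for Vamp7 and 0.36 for Stxbp3) or control library 2 (0.38 for Vamp7 and 0.32 for Stxbp3). With 6 libraries in 2 groups, any gene with a like difference between the groups has a high r, and these values are a description.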

How the data were processed

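Total RNA of RBL-2H3 cells was sequenced in 6 libraries, 3 DHC and 3 control. The authors deposited 1 RPKM value per gene and library with exon coordinates on Rnor_6.0, per the file headers. Trimmomatic 0.36, featureCounts of Subread 1.5.1 and edgeR 3.12.1 were used, per the submitters' processing notes. Of the aligner, annotation release and strand setting, none is given in the sources used here. Reads of a gene and of an antisense partner therefore cannot be told apart. RPKM is scaled by the library total alone, so other abundant transcripts shift every value. In each library RPKM times length gave whole reads (within 0.01 read) for 100% of values, from which reads and library totals were recovered. A count of 3 reads equals 0.0878 to 0.103 RPM, which covers counting error only.

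Genes averaging 1 RPKM or more were tested with limma 3.58.1 in R 4.3.3 on log2(RPKM + 1), with a trended variance and group as the only term, two-sided, with Benjamini-Hochberg adjustment over all tested genes. Log2 differences are on that scale, which understates changes of low genes, and N-fold values are ratios of mean RPKM. Sums, shares and ratios used exact permutation tests in scipy 1.17.1. Likeness and promoter matches are descriptions. The 10 genes, the role lists and the tests were chosen with earlier results of these data known. Named genes are the 10 members, listed relatives of a member, and up to 3 genes per role list with the lowest p past the threshold. The rule adds the 3 genes most like Snap23 and most like the member with the largest rise, passing over identifier-only symbols. A gene that this rule names is not reported here. Shares among the 3 syntaxins, and Rab37, Rab3d, Nsf and Ikbkb, were chosen after their values were seen. Alternatives were other pseudocounts (0.1 and 0.5), filters, scalings (trimmed mean and others), limma-voom on recovered reads, robust variance, a replicate block and leaving out libraries.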

Additional observations from a re-analysis of the deposited data

How the results depend on the processing

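Of the 10 genes, Snap23, Stx11 and Stxbp3 passed under all 17 alternatives, Stxbp2 under 13 and Vamp7 under 6, and Stx3, Stx4, Vamp3 and Unc13d under none. The count of the 10 that passed lay between 3 and 4 when single libraries were left out, with 3 without DHC library 2, control library 1 or control library 3, and was 3 without both libraries numbered 1. Over all tested genes 2472 to 3307 passed when single libraries were left out, against 3685 with all 6 libraries. The log2 difference of Stx3 was -0.025 with trimmed mean and -0.016 with median-of-ratios scaling, and -0.040 to 0.16 when single libraries were left out. The log2 ratio of Stx3 to Stx4 ranged from -0.19 to 0.10 when single libraries were left out and was 0.030 without both libraries numbered 1. Among the role lists, calls in the endosome, lysosome and Golgi SNAREs numbered 3 without a filter and with median-of-ratios scaling, and 3 to 8 when single libraries were left out. SNARE disassembly genes called by limma numbered 0 without a filter (1 at an unadjusted p of 0.05) and 0 at a minimum of 5 RPKM (0 unadjusted), against 1 with limma-voom. They numbered 2 with trimmed mean or median-of-ratios scaling, where Nsf was lower in DHC cells, and 0 to 1 when single libraries were left out. Calls in lysosome-related organelle genes numbered 6 without a filter and 6 to 8 when single libraries were left out. The causes were not tested. Whether replicate numbers pair the libraries was not settled. For each tested gene the group mean of log2(RPKM + 1) was subtracted, and the remaining deviations were correlated between libraries. Same-number correlations of these deviations were 0.228, -0.05 and 0.0828. The highest correlation of deviations between any DHC and control library was that of the libraries numbered 1 (0.228). Not every library had its best correlation of deviations with its own number. Deviations cancel out within a group for each gene, so these correlations are not independent of each other. With the replicate block 4333 genes passed, against 3685 without it, and Vamp8 passed (adjusted p = 0.0179).

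The 3 libraries per group put the smallest exact permutation p at 0.1, so the sums, shares and ratios could not pass 0.05 by that test. Counting error limits Vamp7 (6.23% in DHC and 6.92% in control libraries) more than Snap23.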
